A study of Mus musculus with 8 samples.

Results

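Hearts of *Dgcr8* conditional knockout (cKO) mouse embryos were compared with wild-type (WT) hearts at embryonic day 9.5 (E9.5) by RNA sequencing. The comparison used the 2 cKO and 2 WT libraries of that stage, which are 4 of the 8 libraries of the series, and they were chosen by the stage and genotype in the sample labels. The other 4 libraries are WT and cKO hearts of E8.5. The WT embryos carried *Dgcr8* alleles that Cre can excise on both chromosomes (*Dgcr8* loxP/loxP) and the reporter *Rosa26* mT/mG/+, with no Cre. The cKO embryos carried the same alleles and in addition *Mesp1* Cre/+, so the groups differ by the Cre allele as well as by the deletion. All embryos were on a C57BL/6 background. *Mesp1* is switched on in early mesoderm, so Cre acts in the progenitors of heart muscle, endocardium and other mesodermal cells and not in heart muscle alone, and cells of other origin in the dissected heart keep *Dgcr8*. The study calls the libraries of a group independent biological replicates, and whether a library held 1 heart or a pool is not given in the sources used here.

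The DGCR8 protein holds primary microRNA (miRNA) transcripts for the nuclease Drosha, and together they cut the miRNA hairpins out of them. Without this step most miRNAs are not made, and a miRNA normally lowers messenger RNAs that carry a match to its seed. The heart is the first organ to work in the embryo, and at this stage the heart tube is looping, its chambers are growing and it depends on miRNAs for muscle and vessel development.

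The values are FPKM (fragments mapped to a gene, divided by transcript length and by the mapped total of the library), and the test covered 10018 genes, whose mean over all 8 libraries reached 1 FPKM. Because FPKM are relative to the total of a library, each change below is the log2 change of FPKM + 1 in cKO minus WT hearts, relative to the median gene, which itself changed by -0.07. The pseudocount makes changes of genes with few FPKM look smaller than they are. Relative depth was 1 and 1.30 in the WT and 1.10 and 1.18 in the cKO libraries, and the absolute depth is unknown. A tested gene had a median of 4.31 and 4.48 FPKM in WT against 4.50 and 3.85 in cKO hearts. WT replicate 2 stood apart by base composition. Across 9655 genes the Spearman rho between transcript GC content and the change was -0.627 between the WT replicates (2 minus 1) and -0.182 between the cKO replicates. Against WT replicate 1 the cKO libraries had a rho of 0.121 and 0.0128, and against WT replicate 2 they had 0.577 and 0.557. Results are therefore also given with the GC trend removed or without this library, and the part of base composition in single genes was not tested. Y-linked genes were detected in WT replicate 2 and cKO replicate 1, so sex did not separate the genotypes.

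*Dgcr8* itself (chromosome 16, 18253965 to 18289168, GRCm38) had 3.49 and 3.23 FPKM in the WT libraries and 1.15 and 1.77 FPKM in the cKO libraries. Both cKO libraries lay below both WT libraries, with a change of -0.77 on the log2 scale (SE 0.36, limma adjusted p 0.372). The targeted gene was thus lower in both knockout libraries but did not pass the test, and how much of the remaining RNA came from cells without Cre was not tested. Defining markers of heart muscle were abundant in all 4 libraries. The 10 cardiomyocyte markers summed to 60146 and 58441 FPKM in WT against 82510 and 82079 FPKM in cKO hearts. Most of this sum came from *Actc1* (19433 and 20165 against 27813 and 30146 FPKM) and *Myl7* (25280 and 22019 against 33663 and 32363 FPKM). The myosin heavy chain gene *Myh6* lay lower in both cKO libraries (916 and 777 against 424 and 567 FPKM, -0.71), *Tnnt2*, *Myh7*, *Ttn* and *Actn2* overlapped, and none of the 10 passed an unadjusted p. Endothelial and endocardial markers summed to 81.1 and 83.8 against 119.6 and 110.6 FPKM. *Pecam1* (1.11), *Esam* (1.01) and *Tie1* (0.96) were higher at an unadjusted p, *Tek* lay lower in both cKO libraries (5.50 and 6.94 against 4.45 and 3.51 FPKM, -0.46), and *Cdh5*, *Kdr*, *Cldn5* and *Emcn* (-0.41) overlapped. Primitive erythroid markers summed to 16409 and 34180 against 45095 and 33342 FPKM. Visceral endoderm and liver bud markers summed to 7772 and 5543 against 5174 and 7681 FPKM, so that the groups overlapped, and in the neural and neural crest list 7 of 8 markers were below 1 FPKM in each library, 3 of them at 0, the remaining one, *Tubb3*, having 11.1 and 8.15 against 3.36 and 3.56 FPKM. All 8 macrophage markers were below 1 FPKM in each library. In whole hearts, fewer cells of a type and less RNA per cell cannot be told apart.

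With an adjusted p below 0.05 plus a change of 1.5-fold or more, 18 genes were called higher in cKO hearts, or 0.18% of the genes tested, and 1 gene, or 0.00998%, was called lower. At an unadjusted p under 0.05 and the same fold, 643 genes (6.42%) were higher and 815 (8.14%) lower, so that 44.1% of these were higher, while without the subtraction of the median gene 33.7% were. Of all tested genes 2398 differed by 1.5-fold or more between the groups, while 1947 did so between the WT replicates and 1511 between the cKO replicates. These counts do not set the difference of a gene against its own spread. In simulated data of this size 4-fold changes were called in 64.7% of genes, with 7.8 false calls, and 2-fold changes in 0%. Of the 18 genes called higher 2, *Car9* and *Slc7a3*, reached the limit for testing only through the cKO libraries, and 16 did so without them. In all 18 the groups did not overlap, which also held for 21.0% of all genes in this direction, and for 31.1% in the other. Their changes ran from 1.68 to 4.16, and stayed between 1.74 and 3.98 without WT replicate 2. The calls depended on each library. With WT replicate 1 left out 0 genes were called higher and 1 lower, with WT replicate 2 left out 4 and 6 (3 of the 18 among the 4), with cKO replicate 1 left out 1 and 0, and with cKO replicate 2 left out 3 and 1, and limma on the E9.5 libraries alone called 0 in either direction (877 higher and 858 lower at an unadjusted p).

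Of the 18 genes called higher, 3 are long non-coding RNAs that host miRNA hairpins. *Mir17hg* (chromosome 14, 115044390 to 115046728), the host of the miR-17-92 cluster, had 0.24 and 0.77 FPKM in WT against 11.3 and 10.9 FPKM in cKO hearts. It rose by 3.10 (SE 0.26, limma adjusted p 0.00696). *C430049B03Rik* (chromosome X, 53053112 to 53057190), whose locus holds the hairpins of miR-322 and miR-503, had 5.51 and 6.24 against 35.2 and 39.5 FPKM. It rose by 2.55 (SE 0.26, adjusted p 0.0116). *Mir22hg* (chromosome 11, 75461539 to 75466690), the host of miR-22, had 0.25 and 0.48 against 4.80 and 3.64 FPKM, and it rose by 2.004 (SE 0.23, adjusted p 0.0182). In each of these hosts the cKO libraries lay close together and far above both WT libraries. These hairpins are the substrate of Drosha and DGCR8, so the mature miRNAs are shown, from RefSeq on GRCm38.p6, with the seed (bases 2 to 8) in capitals and grouped by host and seed. The reads measured here are of the host RNA, and mature miRNAs were not measured in these libraries. In the first cluster miR-17 and miR-20a share a seed, as do miR-19a and miR-19b.
mmu-miR-17-5p: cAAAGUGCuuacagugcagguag
mmu-miR-20a-5p: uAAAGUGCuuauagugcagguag
mmu-miR-18a-5p: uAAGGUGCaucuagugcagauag
mmu-miR-19a-3p: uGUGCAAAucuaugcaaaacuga
mmu-miR-19b-3p: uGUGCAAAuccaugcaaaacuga
mmu-miR-92a-3p: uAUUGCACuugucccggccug
mmu-miR-322-5p: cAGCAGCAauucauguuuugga
mmu-miR-503-5p: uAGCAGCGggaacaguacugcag
mmu-miR-22-3p: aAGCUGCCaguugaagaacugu

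The position of the hairpins within the measured loci differed between the hosts. Of the 6 hairpins of the miR-17-92 cluster, 1 (miR-92a-1, 115044427 to 115044506) lies inside the *Mir17hg* locus as the table gives it. That of miR-19b-1 crosses the start of the locus, and the other 4 lie between 127 and 636 bp upstream of it. The value for this host therefore covers RNA at the last hairpin and downstream. The hairpins of miR-503 (53053984 to 53054054) and miR-322 (53054255 to 53054349) lie inside *C430049B03Rik*, and that of miR-22 (75463716 to 75463810) lies inside *Mir22hg*.

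The 3 hosts also separated from the other called genes by stage. At E8.5 their changes were 3.53 for *Mir17hg*, 2.67 for *C430049B03Rik* and 2.17 for *Mir22hg*, and no difference between the 2 stages passed the test (limma interaction, adjusted p at least 0.943). The libraries of the stages are different, so these values are separate measurements. The other 15 genes called higher had changes between -1.14 and 0.46 at E8.5, with a median of 0.11, and 6 of them were below 0. The test of the difference between stages passed for 1 of these 15 genes. *Ndufa4l2* changed by -1.14 at E8.5 and by 4.16 at E9.5, a difference of 5.30 (SE 0.54, interaction adjusted p 0.0489). This difference kept its direction in all 16 alternatives that gave a value but passed the test in only 6 of them, and in none of the fits that left out a library. It compares the change of cKO against WT hearts at each stage. Whether the WT or the cKO level moved between the stages was not tested. For the other 14 the difference did not pass, with adjusted p from 0.0597 (*H2-Ab1*) upwards.

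**Figure D1:**
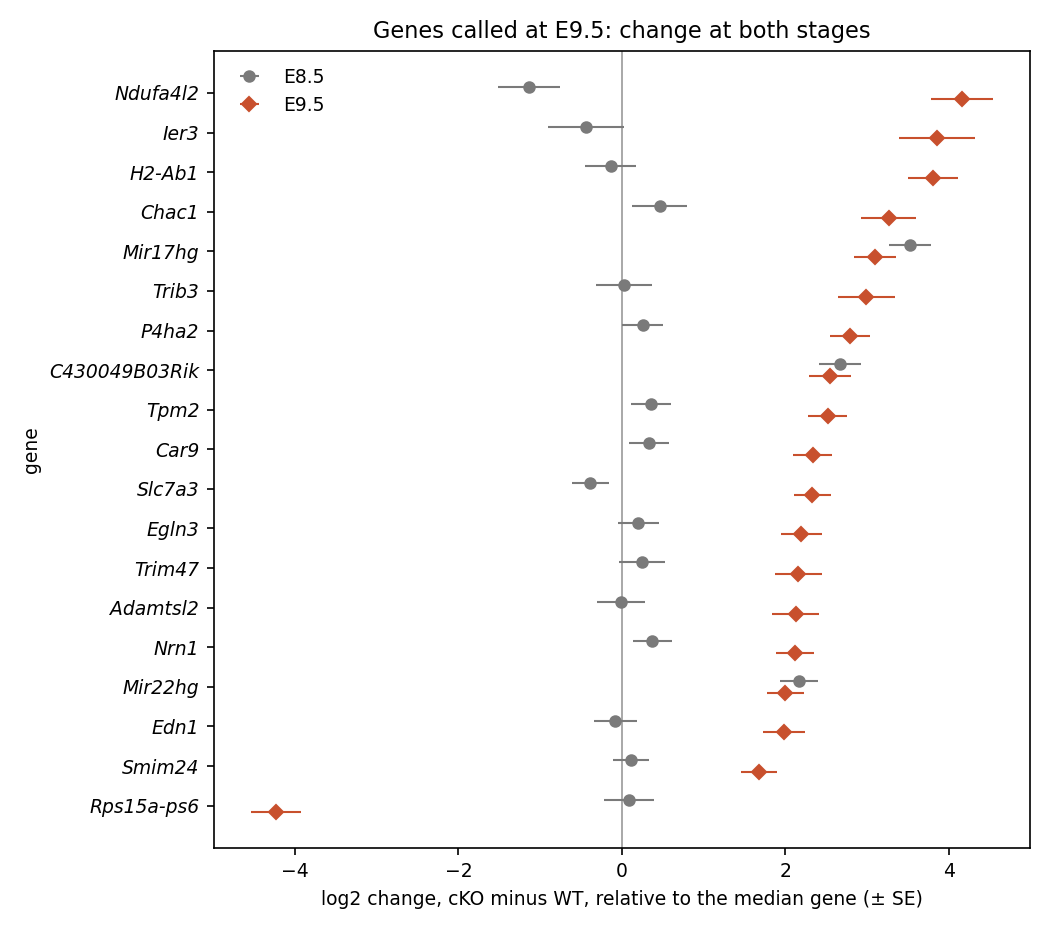
Log2 change of cKO minus WT hearts, relative to the median gene, for the 19 genes called at E9.5 (grey circles, E8.5; red diamonds, E9.5; bars, SE from the limma model, n = 2 libraries a group). The 3 miRNA hosts lie at 2.004 or higher at both stages, and the other genes lie between -1.14 and 0.46 at E8.5.

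Another group of called genes takes part in amino acid supply and the response to its shortage. *Chac1* (chromosome 2, 119351242 to 119354327), which encodes an enzyme that breaks down glutathione, had 0.24 and 0.29 FPKM in WT against 15.3 and 7.23 FPKM in cKO hearts. It rose by 3.27 (SE 0.33, limma adjusted p 0.0116). *Trib3* (chromosome 2, 152337425 to 152344060), a pseudokinase gene of the same response, had 2.02 and 1.53 against 27.3 and 14.6 FPKM, and it rose by 2.99 (SE 0.35, adjusted p 0.0182). Both cKO libraries were high for both genes, with replicate 1 about as far above replicate 2 in each. *Slc7a3* (chromosome X, 101079210 to 101085405), a transporter of cationic amino acids, had 0.12 and 0.24 against 5.12 and 4.22 FPKM, and it rose by 2.33 (SE 0.23, adjusted p 0.0104). It too reached the limit of 1 FPKM for testing only through the E9.5 cKO libraries, its mean over the other 6 being 0.523 FPKM.

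The promoters of *Chac1* and *Trib3* are shown because the element TGATGNAA, which the transcription factor ATF4 is known to bind, was found in these 2 of the 13 called genes that had a RefSeq promoter (250 bases before to 50 after the start, GRCm38.p6). On either strand it occurred in 2.47% of the promoters of 7665 tested genes and in 3.97% of all 32851 promoters. Capitals mark this element and the core GCGTG or its complement, and a match describes letters and not a site in use.
Chac1 promoter, chr2:119350992-119351291, plus strand: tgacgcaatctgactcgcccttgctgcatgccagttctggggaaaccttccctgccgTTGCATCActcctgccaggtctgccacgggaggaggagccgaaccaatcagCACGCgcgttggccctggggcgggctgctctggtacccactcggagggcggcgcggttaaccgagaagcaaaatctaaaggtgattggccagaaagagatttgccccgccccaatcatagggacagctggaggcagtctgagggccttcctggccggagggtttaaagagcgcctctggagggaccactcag
Trib3 promoter, chr2:152344011-152344310, minus strand: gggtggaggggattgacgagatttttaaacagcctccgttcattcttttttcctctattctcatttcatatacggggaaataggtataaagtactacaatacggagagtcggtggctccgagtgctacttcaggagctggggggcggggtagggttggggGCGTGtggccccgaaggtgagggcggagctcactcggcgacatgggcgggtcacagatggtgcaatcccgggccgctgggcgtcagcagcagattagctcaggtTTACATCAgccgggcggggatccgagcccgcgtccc

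The wider list of amino acid transport, serine and one-carbon genes lay mostly on the same side. Its 24 tested members include *Slc7a3*, which was tested only through its cKO values. Of the other 23 members 9 were higher at an unadjusted p (6.42% of all genes were), 0 were lower (8.14%) and 16 lay above the median gene (50.0%), at a median change of 0.58. With *Slc7a3* the median was 0.61, and it was 0.54 with the GC trend removed and 0.56 without WT replicate 2, but 0.21 over members with a mean of at least 5 FPKM and 0.32 with a pseudocount of 5. *Shmt2*, the mitochondrial enzyme that passes a carbon from serine to folate, had 46.1 and 41.5 FPKM in WT against 152 and 121 FPKM in cKO hearts (change 1.68, limma adjusted p 0.103). *Asns*, which makes asparagine, had 24.997 and 27.6 against 57.4 and 56.6 FPKM (1.16, adjusted p 0.114). *Slc3a2*, the shared heavy chain of several amino acid transporters, had 46.3 and 41.5 against 105 and 100.01 FPKM (1.27, adjusted p 0.139). In all of them the groups did not overlap. The cytosolic enzymes of the same pathway had changes of -0.50 for *Shmt1* and -0.49 for *Mthfd1*, neither past an unadjusted p of 0.05 with 1.5-fold, while the mitochondrial *Mthfd1l* had 1.21 and was past it. *Phgdh*, which commits glucose carbon to serine, had 363 and 193 against 224 and 229 FPKM, so its groups overlapped.

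The transfer RNA synthetases, which load amino acids, gave no common direction, with 2 of 20 members higher (6.42% of all genes were), 3 lower (8.14%) and a median of -0.05 that was -0.27 without WT replicate 1 and between -0.18 and 0.03 without another library. *Sars* had 32.2 and 27.9 FPKM in WT against 71.3 and 55.99 FPKM in cKO hearts (change 1.12), and *Cars* had 0.84. *Farsb* had 47.6 and 68.9 against 12.6 and 21.6 FPKM (-1.66) and *Rars* -1.29. The members past an unadjusted p therefore moved apart, none of them at an adjusted p under 0.05.

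A further group of called genes is known from other tissues to respond to low oxygen. *Egln3* (chromosome 12, 54178981 to 54203874), an oxygen-dependent prolyl hydroxylase, had 1.49 and 1.08 FPKM in WT against 9.22 and 8.71 FPKM in cKO hearts. It rose by 2.20 (SE 0.25, limma adjusted p 0.0167). *P4ha2* (chromosome 11, 54100924 to 54131667), which hydroxylates prolines of collagen, had 14.9 and 17.5 against 124 and 100.4 FPKM, a rise of 2.79 (SE 0.25, adjusted p 0.00896) in which the lowest cKO library was far above the highest WT library. *Ndufa4l2* (chromosome 10, 127514939 to 127517156), a relative of a respiratory chain subunit, had 1.28 and 0.52 against 35.7 and 26.4 FPKM, and it rose by 4.16 (SE 0.38, adjusted p 0.00899). Its locus shares 34 bp with the end of *Shmt2* (127517123 to 127522444), and whether counting kept the strands apart is not given in the sources used here. *Car9* (chromosome 4, 43507026 to 43513725), a carbonic anhydrase of the cell surface, had 0.22 and 0.11 against 5.38 and 3.92 FPKM, and it rose by 2.33 (SE 0.24, adjusted p 0.0116). It was tested only because it was high in the E9.5 cKO libraries, since in the other 6 libraries, E8.5 included, it ran from 0.11 to 0.57 FPKM with a mean of 0.305, below the limit of 1 FPKM for testing. It ends at the base before *Tpm2* (43513726 to 43523554), which lies on the opposite strand and is itself called higher at a far larger level, and the part of reads from the neighbour in the *Car9* value was not tested.

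The promoters of *P4ha2* and *Egln3* are shown for the core ACGTG of the element that hypoxia-inducible factors are known to bind. ACGTG was found in 6 of the 13 promoters of genes called higher and in 30.8% of those of tested genes. GCGTG was found in 6 of 13 and in 57.5%, and either of them in 10 of 13 and in 69.3%. The letters of these cores are thus common in promoters. Capitals mark both cores, on either strand.
P4ha2 promoter, chr11:54100674-54100973, plus strand: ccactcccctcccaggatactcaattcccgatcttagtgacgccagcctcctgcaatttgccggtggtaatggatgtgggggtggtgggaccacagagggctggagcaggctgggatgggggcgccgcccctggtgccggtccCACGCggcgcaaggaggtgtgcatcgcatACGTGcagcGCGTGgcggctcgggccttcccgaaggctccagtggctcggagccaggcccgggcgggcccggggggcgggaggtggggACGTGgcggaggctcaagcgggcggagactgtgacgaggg
Egln3 promoter, chr12:54203825-54204124, minus strand: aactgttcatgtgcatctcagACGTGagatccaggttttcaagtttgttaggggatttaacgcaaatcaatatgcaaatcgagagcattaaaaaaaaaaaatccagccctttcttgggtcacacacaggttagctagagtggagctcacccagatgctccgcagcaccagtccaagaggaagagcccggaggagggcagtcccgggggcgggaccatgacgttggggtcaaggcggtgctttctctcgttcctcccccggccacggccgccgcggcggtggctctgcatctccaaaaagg

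Of the 10 largest increases outside the called genes (unadjusted p under 0.05, no overlap), none of which passed the adjusted threshold, 4 are given here, in a grouping made after the values were seen. *Cox4i2*, an alternative subunit of cytochrome c oxidase, had 7.81 and 11.5 FPKM in WT against 191 and 127 FPKM in cKO hearts (change 3.97, SE 0.60, limma adjusted p 0.0576). *Ndrg1* had 2.95 and 0.78 against 26.1 and 13.2 FPKM (2.96, adjusted p 0.0822), the glycolytic enzyme *Aldoc* had 2.84 and 1.18 against 19.02 and 11.97 FPKM (2.55, adjusted p 0.0904), and the mitochondrial protein *Mgarp* had 12.3 and 4.43 against 38.5 and 41.7 FPKM (2.34, adjusted p 0.0775). Their groups did not overlap, as the choice required. At E8.5 these 4 genes had changes between -0.32 and 0.20.

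The remaining genes called higher act in contraction, signalling, secretion and antigen presentation. *Tpm2* (chromosome 4, 43513726 to 43523554), which encodes beta-tropomyosin of muscle thin filaments, had 27.4 and 32.04 FPKM in WT against 166 FPKM in each cKO library, a rise of 2.52 (SE 0.24, limma adjusted p 0.0104). *Edn1* (chromosome 13, 42301270 to 42307989), the precursor of the peptide endothelin-1, had 1.11 and 1.93 against 9.53 and 7.38 FPKM, and it rose by 1.99 (SE 0.26, adjusted p 0.0386). Of the receptors for this peptide, *Ednra* had 6.52 and 7.85 against 8.005 and 10.4 FPKM (change 0.39) and *Ednrb* had 4.59 and 6.32 against 3.43 and 1.55 FPKM (-0.86), neither past the adjusted threshold. *Ier3* (chromosome 17, 35821713 to 35822911), an immediate early gene, had 2.70 and 2.53 against 69.4 and 34.4 FPKM and rose by 3.86 (SE 0.46, adjusted p 0.0228). Here cKO replicate 1 was about as far above replicate 2 as in *Chac1* and *Trib3*, and 16 of the 18 genes had their higher cKO value in replicate 1. *Adamtsl2* (secreted, fibrillin-associated), *Trim47* (a RING-type ubiquitin ligase), *Nrn1* (a neurite-promoting surface protein) and *Smim24* were at about 1 FPKM or below in both WT libraries and between 2.54 and 9.52 FPKM in the cKO libraries, with rises from 1.68 to 2.16.

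*H2-Ab1* (chromosome 17, 34263227 to 34269418), the beta chain of a class II histocompatibility molecule, had 2.29 and 3.17 FPKM in WT against 63.1 and 37.02 FPKM in cKO hearts, a rise of 3.81 (SE 0.31, limma adjusted p 0.00696). The other 7 of the 8 antigen-presenting cell markers stayed below 1 FPKM in all 4 libraries, with *H2-Aa*, the alpha chain partner, at 0.07 and 0 in WT and at 0 in both cKO libraries, and *Cd74*, the invariant chain, between 0.10 and 0.42 FPKM. *Cd209a* was listed at 0 throughout. The rise of this gene thus came without its partner chain or the cell type's other markers.

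The gene called lower, *Rps15a-ps6* (chromosome 11, 6172508 to 6173331), is a transcribed pseudogene. It had 44.95 and 34.1 FPKM in WT against 0.90 and 1.19 FPKM in cKO hearts, and it changed by -4.23 (SE 0.31, limma adjusted p 0.00696). It lies inside the locus of *Nudcd3* (6105692 to 6200451), which had 8.91 and 9.96 against 9.24 and 9.77 FPKM. Its parent gene *Rps15a* had 71.9 and 54.1 against 57.5 and 61.0 FPKM. Reads of copies of a ribosomal protein gene can be assigned to either, so the value of the pseudogene is uncertain. The changes of *Nudcd3* (0.08) and *Rps15a* (-0.00) did not pass the test.

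**Figure D2:**
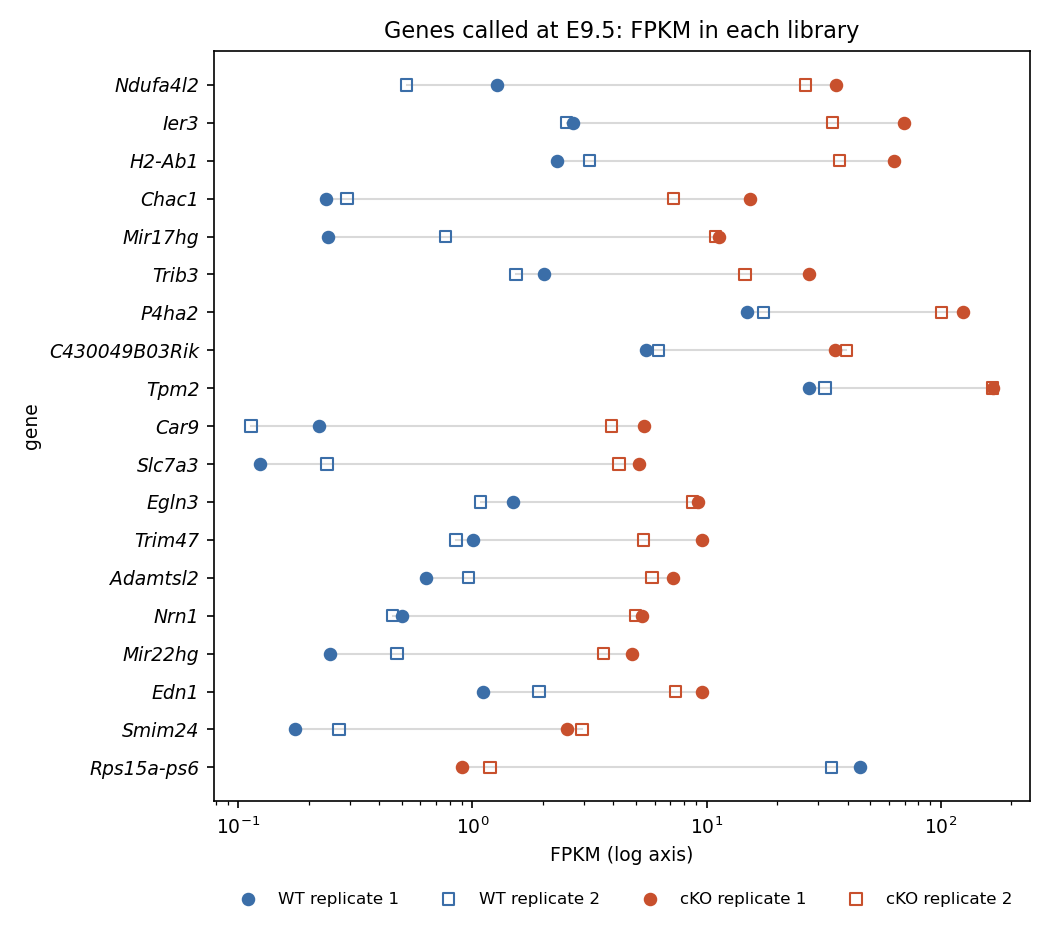
FPKM of the 19 called genes in each E9.5 library on a log axis (blue, WT; red, cKO; filled circles, replicate 1; open squares, replicate 2; grey lines join the extremes). In every gene both cKO libraries lie on the same side of both WT libraries, and in 16 of the 18 genes called higher cKO replicate 1 is the higher cKO library.

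Outside the called genes, the other 6 of these 10 increases ran from 2.35 to 3.87. *Ctgf*, a matricellular protein, had 11.2 and 21.5 FPKM in WT against 350 and 151 FPKM in cKO hearts (change 3.87, SE 0.57, limma adjusted p 0.0543). *Krt19*, an epithelial keratin, had 46.4 and 46.1 against 689.9 and 329 FPKM (3.41, SE 0.52, adjusted p 0.0576). *Cdkn1a*, the cell cycle inhibitor p21, had 4.19 and 4.35 against 24.6 and 24.4 FPKM (2.35, SE 0.34, adjusted p 0.0543), with almost no spread in either group. *Rasl11b*, a small GTPase gene, had 18.1 and 24.8 against 146 and 121 FPKM (2.66), and *Rcan1*, an inhibitor of calcineurin, had 22.1 and 29.7 against 163 and 142 FPKM (2.60). The adult-type beta-globin *Hbb-bt* had 6.71 and 37.96 against 179 and 128 FPKM (3.20, SE 1.29, adjusted p 0.2997). Its WT libraries were far apart, as were the erythroid marker sums, and globin copies share reads.

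None of the 10 largest decreases chosen in the same way passed the adjusted threshold, with adjusted p from 0.0663 to 0.233. *Col3a1*, the fibrillar collagen of connective tissue, had 40.6 and 36.8 FPKM in WT against 5.70 and 7.34 FPKM in cKO hearts (change -2.34, SE 0.40). The secreted growth factor gene *Ptn* had 17.7 and 10.4 against 0.94 and 1.05 FPKM (-2.80, SE 0.67). The nucleotide-making enzyme *Rrm2* had 196 and 259 against 30.5 and 63.2 FPKM (-2.26), and *2810417H13Rik*, which encodes a partner of the replication clamp, had 52.8 and 68.6 against 9.07 and 15.9 FPKM (-2.16). In these the cKO libraries lay far below both WT libraries. The chromatin proteins *Hmgb1* (417 and 632 against 78.2 and 152 FPKM, -2.16) and *Sub1* (51.9 and 135 against 14.98 and 21.3 FPKM, -2.10), *Mrpl42* (-2.77), *Itm2a* (-2.22) and *Cacybp* (-2.09) had their highest value in WT replicate 2. *Dlk1* had 47.7 and 7.45 against 4.002 and 3.38 FPKM (-2.05), so most of its difference came from WT replicate 1.

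Gene lists of other functions were then described by their members, without a test of the list. Their median changes ran from -0.94 to 0.61, and they moved with the processing and with single libraries, as given beside each. Of their members only *Slc7a3* and *P4ha2* passed the adjusted test, and the members counted below as higher or lower had an unadjusted p under 0.05 and at least 1.5-fold, as 6.42% of all genes had on the higher and 8.14% on the lower side.

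**Figure D3:**
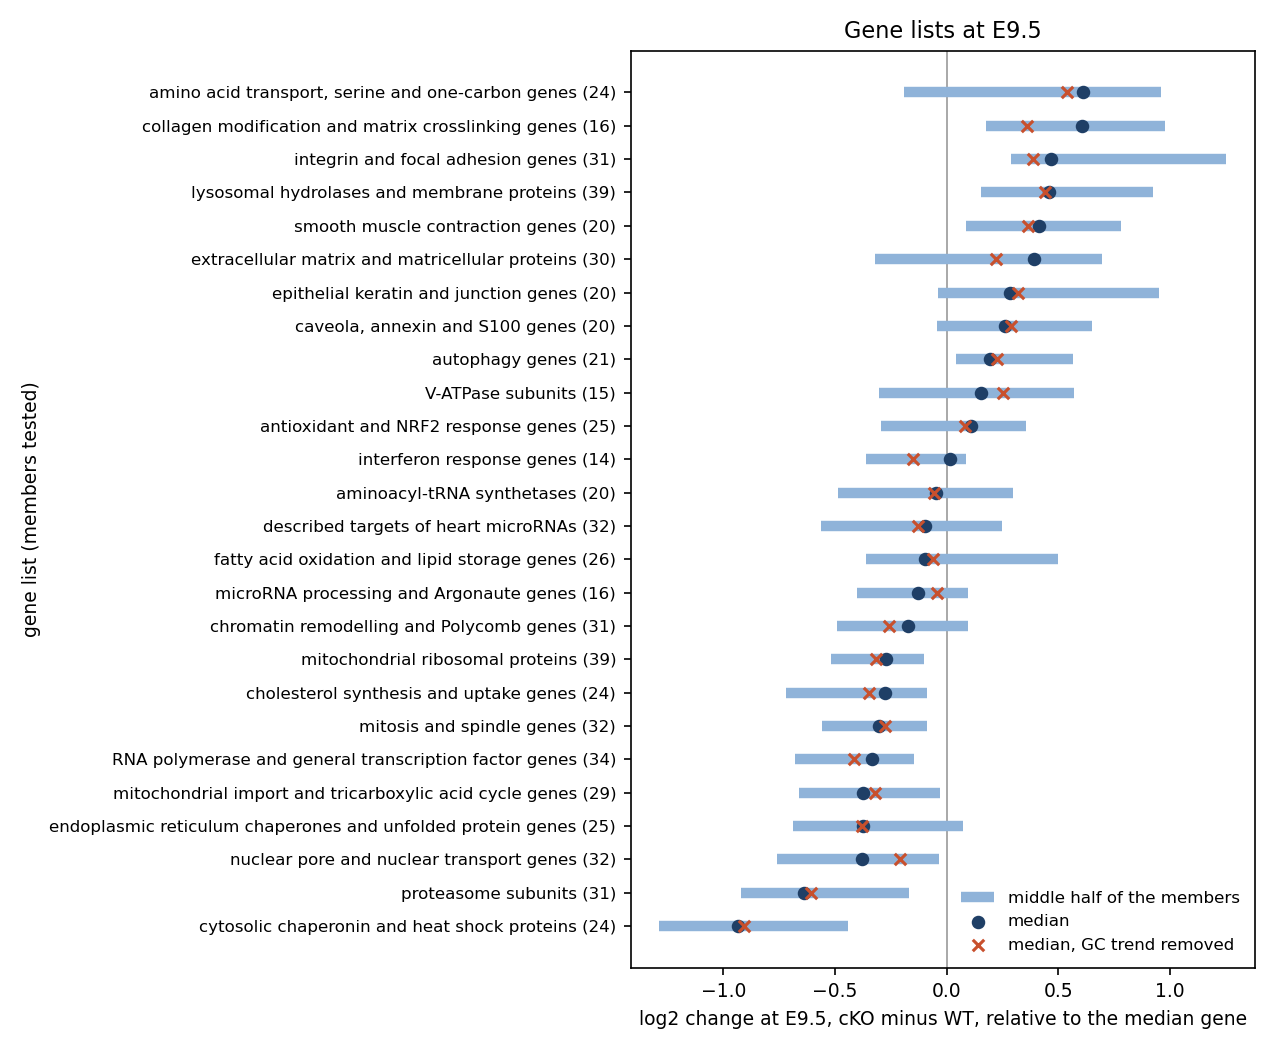
Median change at E9.5 (dark circles) and the range from the lower to the upper quartile of the members (bars) for 26 gene lists, relative to the median gene at 0, with the number of tested members in parentheses. Crosses give the median after removal of the GC trend. Chaperonin and proteasome genes lie lowest at -0.94 and -0.64, and amino acid supply and collagen modification highest at 0.61.

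Lysosomal genes lay mostly above the median gene. Of 39 tested hydrolases and membrane proteins, 13 were higher at an unadjusted p (6.42% of all genes were), 0 were lower and 32 lay above the median gene. The median change was 0.46, and it was 0.44 with the GC trend removed and 0.50 without WT replicate 2, and ran from 0.33 to 0.70 over all alternatives. *Ctsa*, the protective protein of several lysosomal glycosidases, had 34.1 and 33.3 FPKM in WT against 143 and 153 FPKM in cKO hearts (change 2.18, SE 0.35, limma adjusted p 0.0663). *Gm2a*, the activator of ganglioside breakdown, had 12.999 and 11.99 against 36.5 and 42.3 FPKM (1.65), and *Hexa*, a subunit of the hexosaminidase it serves, had a change of 0.96. The hydrolases *Naglu* (1.24), *Gaa* (1.14) and *Man2b1* (0.99) were also among the 13. The protease *Ctsd* had 180 and 156 against 317 and 357 FPKM (1.07). Of the membrane proteins of the same organelle, *Lamp1* had 0.43, *Lamp2* 0.02, *Scarb2* 0.09 and *Cd63* 0.84. No member passed an adjusted p of 0.05. At E8.5 the median change of the list was 0.19.

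The neighbouring functions were less uniform. The proton pump of the lysosome (V-ATPase) had 2 of 15 members higher (against 6.42% of all genes), *Atp6v0e* with 187 and 148 against 431 and 372 FPKM (change 1.33) and *Atp6v0d1* with 1.05, and a median of 0.16 that was -0.01 without cKO replicate 2 and 0.42 without cKO replicate 1. Autophagy genes had 3 of 21 higher and 1 lower (against 6.42% and 8.14% of all genes) at a median of 0.19 that was 0.34 without WT replicate 1 and 0.32 without cKO replicate 2, and that ran from 0.12 to 0.39 over all alternatives. *Sqstm1*, the receptor that brings cargo to autophagosomes, had 97.9 and 92.2 against 181 and 184 FPKM (1.001), and *Atg5*, which is needed to form them, had 7.92 and 9.39 against 2.69 and 4.70 FPKM (-0.998). No member of either list passed an adjusted p of 0.05.

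Genes that modify and crosslink collagen lay mostly above the median gene, and fibrillar collagens lay on both sides of it. Of 16 tested modification genes 6 were higher at an unadjusted p (6.42% of all genes were), 1 of them the called *P4ha2*, 1 was lower (8.14%), and the median change was 0.61 (0.36 with the GC trend removed, 0.45 without WT replicate 2 and 0.35 with a pseudocount of 5). The lysyl hydroxylases *Plod1*, *Plod2* and *Plod3* were all among the 6, with 9.89 and 12.3 against 26.4 and 21.4 FPKM for *Plod1* (change 1.11) and changes of 1.03 and 0.96 for the others. The crosslinking oxidase *Loxl2* had 27.1 and 32.7 against 63.98 and 90.4 FPKM (1.40). The member that was lower, *Pcolce*, helps to process fibrillar procollagen and had 32.6 and 43.1 against 23.01 and 19.7 FPKM (-0.72). Among 30 matrix proteins 7 were higher and 3 lower, the latter a share near that of all genes. The 3 were *Col3a1*, *Col1a2* (15.5 and 13.5 against 4.04 and 4.82 FPKM, -1.45) and the fibulin *Fbln2* (-1.07), and *Col1a1* had -0.91 without passing an unadjusted p. The 7 were mostly basement membrane or matricellular genes, with *Cyr61* at 1.82, *Fbln1* at 1.33 (93.2 and 63.3 against 176 and 196 FPKM), *Nid2* at 1.01, *Agrn* at 0.76, *Hspg2* at 0.75, *Col18a1* at 0.69 and the fibrillar *Col5a1* at 0.60. The matrix list had a median of 0.39, which was 0.06 without WT replicate 1, 0.22 with the GC trend removed and 0.20 with a pseudocount of 5. None of these members but *P4ha2* passed an adjusted p of 0.05.

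The levels of connective tissue and surface layer genes are given beside these collagens. Of the epicardial markers, *Tcf21* had 14.3 and 3.79 FPKM in WT against 1.38 and 1.33 FPKM in cKO hearts, *Aldh1a2* had 2.94 and 0.84 against 0.28 and 0.11 FPKM, *Upk3b* had 15.6 and 11.8 against 4.77 and 4.86 FPKM, and *Wt1* had 3.19 and 2.73 against 2.64 and 2.37 FPKM. In 5 of the 6 tested members both cKO libraries lay below both WT libraries, as they did in 31.1% of all genes. The list summed to 88.9 and 71.8 against 703 and 343 FPKM, most of it from *Krt19* in the cKO libraries. None of them passed an adjusted p of 0.05. Whether the share of epicardial cells differed, and whether it had a part in the collagen values, was not tested.

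Genes of the actin-bound adhesion sites lay mostly above the median gene. Of 31 integrin and focal adhesion genes 10 were higher at an unadjusted p (6.42% of all genes were), 1 was lower (8.14%) and 25 lay above the median gene (24 without *Itga1*, which was tested only through its cKO values), at a median change of 0.47 (0.39 with the GC trend removed, 0.54 without WT replicate 2 and 0.26 with a pseudocount of 5). The fibronectin receptor subunit *Itga5* had 11.8 and 13.2 FPKM in WT against 43.4 and 35.5 FPKM in cKO hearts (change 1.64, SE 0.28, limma adjusted p 0.0775), and *Itgb3*, a subunit of the vitronectin receptor, had 1.20 and 1.32 against 6.04 and 5.13 FPKM (1.61, SE 0.23, adjusted p 0.0535). The actin crosslinkers *Flna* (18.3 and 14.98 against 49.99 and 64.4 FPKM, 1.79) and *Flnc* (0.86) were among the 10. The calponins differed among themselves, with *Cnn1* at 2.20 (145 and 167 against 665 and 708 FPKM), *Cnn2* at 1.06 and *Cnn3* at -1.01 (397 and 395 against 124 and 281 FPKM). *Itgb1*, *Vcl* and *Ptk2*, core components of these sites, had changes of -0.36, -0.53 and -0.38.

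Smooth muscle genes, which early heart muscle also uses, had 5 of 20 members higher and 3 lower (against 6.42% and 8.14% of all genes), at a median of 0.41 that was 0.27 without WT replicate 1 and 0.19 with a pseudocount of 5. *Tagln* had 352 and 586 FPKM in WT against 1536 and 1218 FPKM in cKO hearts (change 1.66), *Acta2* had 3003 and 4096 against 6853 and 6565 FPKM (1.01), and *Ppp1r14a*, an inhibitor of myosin phosphatase, had 2.99 and 5.67 against 14.4 and 12.96 FPKM (1.58). Those that were lower included *Calm2* at -1.13 and the endothelin receptor *Ednrb* at -0.86. Keratins and junction genes had 5 of 20 higher (6.42% of all genes were) and 0 lower, at a median of 0.28 that was 0.95 over members with a mean of at least 5 FPKM and 0.16 with a pseudocount of 5. The keratins *Krt8* and *Krt18*, which pair into filaments, had 181 and 288 against 468 and 425 FPKM and 128 and 145 against 389 and 346 FPKM, and *Pkp2* (1.10) and *Jup* (0.86) were also among the 5. Members of the desmosome, the junction that *Pkp2* and *Jup* belong to, differed among themselves, as *Dsp* had 0.05 with overlapping groups, *Dsc2* had -0.51 with both cKO below both WT libraries, and *Dsg2*, too low to be tested, had 0.68 and 0.67 against 0.56 and 0.32 FPKM. Other epithelial members lay on both sides, with *Krt7* at 0.92, *Cldn6* at 0.42, *Cdh1* at -0.33 and *Epcam* at -1.17, none past an unadjusted p. Caveola and annexin genes had 4 of 20 higher (6.42% of all genes were) at a median of 0.26, which ran from 0.14 without a filter on low values to 0.45 with a mean of at least 5 FPKM, led by *Anxa2* with 102 and 173 against 508 and 533 FPKM (2.03, limma adjusted p 0.0722).

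In the reported fit protein folding and degradation genes had the lowest medians of the lists. For the proteasome this rank depended on the setting. Nuclear pore genes lay below it without WT replicate 1 (-0.65 against -0.62), without cKO replicate 1 (-0.33 against -0.32) and with quantile normalization (-0.36 against -0.33). Interferon genes did so over members with a mean of at least 5 FPKM (-0.62 against -0.54). The 24 chaperonin and heat shock genes are mostly cytosolic but include the mitochondrial *Hspd1* and *Hspe1*, both of them lower at an unadjusted p. Of these 24 genes 13 were lower at an unadjusted p (8.14% of all genes were), 0 were higher and 2 lay above the median gene. Of 31 proteasome subunits 14 were lower, 0 higher and 3 above the median gene. The median changes were -0.94 and -0.64, and they were -0.91 and -0.61 with the GC trend removed and -0.86 and -0.62 without WT replicate 2. No member of either list passed an adjusted p of 0.05. Without cKO replicate 1, which had the lower values, the medians were -0.54 and -0.32, and with quantile normalization that of the proteasome was -0.33.

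Within the complexes the subunits differed, in classes that were formed after the values were seen. The 8 subunits of the chaperonin CCT, the ring that folds actin and tubulin, all lay below the median gene and 5 were lower at an unadjusted p. *Cct4* had 208 and 397 FPKM in WT against 48.2 and 94.7 FPKM in cKO hearts (change -2.003, SE 0.42, limma adjusted p 0.116), *Cct8* had 249 and 469 against 59.8 and 114 FPKM (-1.97), and *Cct7* had 479.9 and 457 against 304 and 371 FPKM (-0.41). The mitochondrial chaperonin *Hspd1* had 387 and 824 against 121 and 187 FPKM (-1.84), and *Hspa8*, the constitutive cytosolic chaperone, had 5409 and 6025 against 1851 and 4265 FPKM (-0.95). The inducible *Dnajb1* had 20.8 and 19.8 against 20.2 and 22.4 FPKM (0.13). In the proteasome, 4 of 7 subunits of the outer alpha ring and 10 of 17 of the regulatory particle were lower, while 0 of 7 of the catalytic beta ring were. Their median changes were -0.84, -0.70 and -0.13, and after removal of the GC trend -0.56, -0.70 and -0.22. The beta ring transcripts were richer in GC, with a median of 52.2% against 45.0% for the alpha ring. *Psma1* had 207 and 365 against 51.8 and 107 FPKM (-1.80), *Psmd14*, the subunit that removes ubiquitin, had 67.1 and 99.7 against 18.5 and 30.6 FPKM (-1.67), and the catalytic *Psmb5* had 412 and 299 against 351 and 328 FPKM (0.02).

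**Figure D4:**
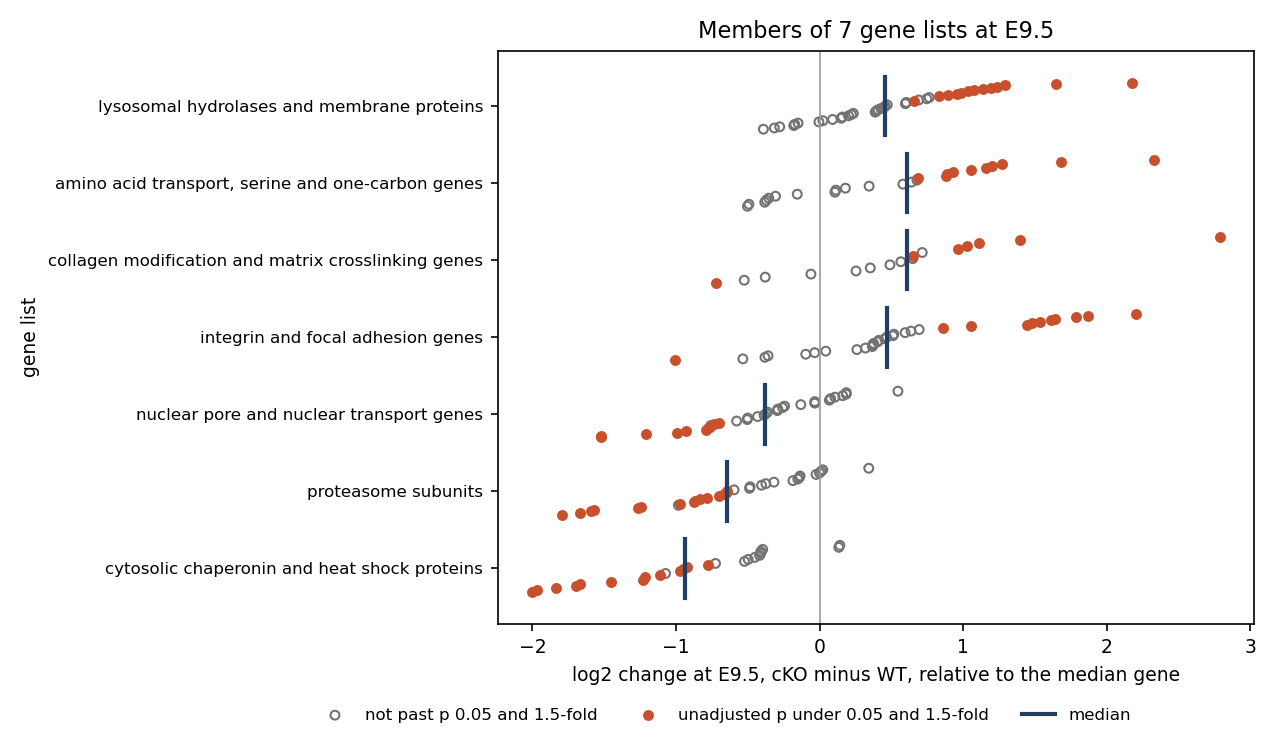
Log2 change at E9.5, relative to the median gene, of every tested member of 7 gene lists (filled red, unadjusted p under 0.05 and at least 1.5-fold; open grey, the rest; vertical lines, medians), ordered by value within a list. In the lysosomal list 13 members pass on the higher side and 0 on the lower, and in the chaperonin list 13 pass on the lower side and 0 on the higher.

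Chaperones of the endoplasmic reticulum had 6 of 25 lower (8.14% of all genes were), 1 higher and a median of -0.38 (-0.22 without WT replicate 2, -0.24 without cKO replicate 1). *Hspa5* had 704 and 1018 FPKM in WT against 151 and 334 FPKM in cKO hearts (change -1.84, SE 0.43, limma adjusted p 0.134), and the disulfide isomerase *Pdia3* had 525 and 862 against 135 and 249 FPKM (-1.80). Both are raised when unfolded proteins gather in this compartment. The member that was higher, *Ero1l*, had 2.72 and 4.22 against 16.02 and 7.69 FPKM (1.54).

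Nuclear transport and transcription genes lay mostly below the median gene as well. Of 32 nuclear pore and transport genes 10 were lower (8.14% of all genes were) and 0 higher, at a median of -0.38 that was -0.21 with the GC trend removed, -0.65 without WT replicate 1 and -0.61 without cKO replicate 2. The importins *Kpna2* (239 and 396 against 65.8 and 155 FPKM, -1.52), *Ipo5* (-1.21) and *Kpnb1* (-0.996) and the regulators *Ranbp1* (1172 and 1029 against 261 and 507 FPKM, -1.52) and *Ran* (-0.79) were among the 10, as was the pore protein *Nup93* (-0.70), and *Nup62* had 0.16. Of 34 RNA polymerase and general transcription factor genes 9 were lower and 0 higher, at a median of -0.34 (-0.39 without WT replicate 2). *Gtf2a2* had 73.6 and 68.9 against 26.2 and 31.9 FPKM (-1.20), and *Polr2a*, the catalytic subunit of RNA polymerase II, had 4.19 and 4.36 against 4.02 and 3.75 FPKM (-0.04). Chromatin genes had 2 of 31 lower, a share below that of all genes, and a median of -0.17, which was -0.11 and -0.10 without WT replicates 1 and 2, -0.09 without cKO replicate 2 and -0.05 with a pseudocount of 5, but -0.32 over members with a mean of at least 5 FPKM and -0.26 with the GC trend removed. Of these *Cbx1*, a heterochromatin protein, had 34.7 and 29.99 against 10.1 and 12.9 FPKM (-1.35).

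Mitochondrial and mitosis genes lay mostly below the median gene. Mitochondrial ribosomal proteins had 6 of 39 lower (8.14% of all genes were) and 0 higher, with 4 above the median gene and a median of -0.27 (-0.15 with quantile normalization), and *Mrpl13* had 99.9 and 86.1 FPKM in WT against 21.4 and 38.1 FPKM in cKO hearts (change -1.59). Import and tricarboxylic acid cycle genes had 6 of 29 lower and 0 higher at a median of -0.37, which was -0.23 without cKO replicate 1 and -0.17 with quantile normalization. The import factor *Timm9* had 32.5 and 34.2 against 10.8 and 13.1 FPKM (-1.34), and the cycle enzyme *Idh3a* had 90.2 and 149 against 23.9 and 54.1 FPKM (-1.59). Mitosis genes had 5 of 32 lower and 0 higher at a median of -0.30, which was -0.58 without WT replicate 1 and -0.19 with quantile normalization. The cyclins *Ccnb1* (99.8 and 172 against 34.8 and 60.6 FPKM, -1.42) and *Ccna2* (-1.35) led them, while *Cdk1*, their kinase, had 105 and 108 against 95.6 and 118 FPKM (0.06). None of these members passed an adjusted p of 0.05.

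Fatty acid, redox and interferon genes showed no common direction, and cholesterol genes lay mostly below the median gene. Fatty acid oxidation and lipid storage genes had 5 of 26 higher and 1 lower (against 6.42% and 8.14% of all genes) at a median of -0.10, which was between -0.20 and 0.07 with a library left out. The 5 included genes of lipid droplets, with *Hilpda* at 16.5 and 9.95 against 51.9 and 39.3 FPKM (1.81), *Pnpla2* at 0.90, *Dgat1* at 0.76 and *Plin2* at 0.74. Cholesterol synthesis and uptake genes had 3 of 24 (12.5%) lower, *Msmo1*, *Hmgcs1* and *Sc5d*, 0 higher and 19 below the median gene. Their median was -0.28, with 0.03 without WT replicate 1, -0.60 without WT replicate 2 and -0.15 without cKO replicate 1, and the list medians of the 2 groups of libraries overlapped. Antioxidant genes had 2 of 25 (8.0%) higher and 1 lower, near the shares of all genes, at a median of 0.11 (0.23 without WT replicate 1, -0.08 without WT replicate 2), with *Mt1* at 323 and 273 against 1250 and 1046 FPKM (2.01) and *Hmox1* at 16.3 and 8.88 against 39.99 and 27.02 FPKM (1.45). Interferon response genes had 1 of 14 (7.14%) higher, a share near that of all genes, *Bst2* with 10.5 and 8.97 against 22.5 and 23.1 FPKM (1.22), at a median of 0.02 whose sign differed in 8 of 17 alternative settings and which was -0.62 over members with a mean of at least 5 FPKM.

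The last question was whether transcripts that miRNAs are known to lower were higher. Genes of miRNA processing had 2 of 16 lower and 0 higher at a median of -0.13 that was -0.23 without WT replicate 1 and ran from -0.28 to -0.04 over all alternatives. *Drosha*, the nuclease that works with DGCR8, had 8.07 and 8.08 FPKM in WT against 4.39 and 5.14 FPKM in cKO hearts (change -0.59, limma adjusted p 0.279), *Ddx5*, its helicase cofactor, had 164 and 338 against 70.4 and 96.9 FPKM (-1.43), and *Dicer1* (0.01) and *Ago2* (0.06) lay at the median gene. Of 32 tested genes described as targets of heart miRNAs, 4 were higher (6.42% of all genes were), 3 were lower (8.14%) and 13 lay above the median gene, at a median of -0.10 that was -0.32 without WT replicate 1, 0.01 without cKO replicate 1 and -0.36 over members with a mean of at least 5 FPKM. The 4 were *Ctgf*, *Cdkn1a*, *E2f1* (0.60 and 0.42 against 1.97 and 1.29 FPKM, 0.87) and *Timp3* (4.73 and 5.32 against 8.83 and 9.94 FPKM, 0.85). The 3 were *Ccnd2* (82.3 and 164 against 28.7 and 48.2 FPKM, -1.55), *Igf2bp3* (-1.10) and *Cdc42* (-0.96). The share that was lower (9.38%) was near that of all genes. The share that was higher was 12.5%, but its members *Ctgf* and *Cdkn1a* were already among the 10 largest increases given above. The list was also chosen with earlier results of these data known, so this share is a description only. The direction of the median depended on the library.

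A wider view came from seed matches in the 3' untranslated regions of 9582 genes, for 8 miRNA families with a mature sequence at hand (miR-126a, miR-30, miR-26a, miR-17/20a, miR-92a/25, miR-21a, miR-148a and miR-541-5p). The abundant heart miRNAs miR-1a and miR-133a, and miR-143 and miR-378a, were not analysed here. Genes with at least 1 match to bases 2 to 8 of a miRNA differed from genes without it by between -0.08 and 0.03 in the median change. For miR-17 and miR-20a, 1178 genes held a match, and their median change was 0.02 against 0.00 for the rest. For miR-21a the difference was -0.07 over 600 genes. The same difference between the WT replicates was larger, from 0.08 to 0.22. Genes with a match had a median GC content of 46.2% to 50.3%, against 50.7% to 51.4% for genes without. Against both WT libraries 4 of the 8 families had a positive difference. Against WT replicate 1 alone 7 of 8 were positive, between 0.05 and 0.09, and with the GC trend removed 7 of 8 were positive, between 0.07 and 0.12. In both cases the family below 0 was miR-126a (-0.09 and -0.14), for which only 24 genes held a match. Against WT replicate 2 alone all 8 were below 0, from -0.21 to -0.00. In 7 of the 8 families the direction thus depended on the WT library used, and in 3 of them (miR-30, miR-26a and miR-21a) removal of the GC trend also turned it, while miR-126a was below 0 in each of these versions.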

How the data were processed

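RNA was extracted with Trizol, amplified by a Smart-seq protocol and sequenced on an Illumina instrument. Per the study's methods reads were mapped with BWA to mm9, but 91.7% of 9515 gene starts in the table lay within 1000 bp of the GRCm38 start, so coordinates are the table's own on GRCm38, counted from 1. The authors deposited FPKM per gene and library, and the program that made them is not given in the sources used here. FPKM carry no counts, so count tests, counting intervals and detection floors were not used. Of 24930 entries, 24385 remained after 285 repeated symbols were reduced to the entry with the highest mean, and the 10018 whose mean reached 1 FPKM were tested. None of the 8 columns was left out.

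Values were analysed as log2(FPKM + 1) with limma 3.58.1 in R 4.3.3, two-sided, in 1 model of 4 groups with 4 residual degrees of freedom, with the median change subtracted before the test and Benjamini-Hochberg adjustment over the 10018 genes. Calls needed an adjusted p below 0.05 plus 1.5-fold or more. With 2 libraries a side, the smallest two-sided p of an exact permutation test is 0.333. Stage differences were interactions in the same model. The fit was first tested on simulated data in which 200 genes were changed. GC content and 3' untranslated regions came from GENCODE transcripts of the older build, matched by symbol, and sequences from RefSeq on GRCm38.p6. Of the 18 genes called higher, 13 had a RefSeq promoter. Equally numbered libraries did not deviate together (correlation 0.0168), so the numbers were not used as pairs.

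Named genes were *Dgcr8*, all called genes, the 10 largest other rises and falls with an unadjusted p under 0.05, no overlap, a mean of at least 5 FPKM in 1 group and a locus of at least 300 bp, and in each list the called members and the 4 with the smallest p. Some genes that this rule covers are not reported here. Other members are named to describe a list and were chosen after their values were seen. The comparison and the gene lists were chosen with earlier results of these data known, so lists were described by counts and medians and not tested. Alternatives changed the scaling, reference, GC trend, pseudocount, filters, variance model, samples and replicate block.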

Additional observations from a re-analysis of the deposited data

Results flagged for a closer look

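The effect of the knockout differed between the stages for 2 genes, by the interaction of genotype and stage in limma over all 10018 genes. *Ndufa4l2* had a change at E9.5 minus that at E8.5 of 5.30 on the log2 scale (SE 0.54, adjusted p 0.0489). *Rps15a-ps6* had a difference of -4.32 (SE 0.44, adjusted p 0.0489). Both calls were close to the threshold, and whether the WT or the cKO level of these genes moved between the stages was not tested. *Ndufa4l2* passed in 6 of 16 alternatives and *Rps15a-ps6* in 5 of 15. No gene passed with quantile normalization, a pseudocount of 0.1, no filter on low values or no variance trend (without adjustment 550, 655, 691 and 633 genes had p below 0.05 and 1.5-fold, and 617 in the reported fit), and median-ratio scaling gave 4. With a pseudocount of 5 *Ndufa4l2* lost the call (adjusted p 0.0986), as *Rps15a-ps6* did with a mean of at least 5 FPKM (adjusted p 0.088), and both lost it with the replicate block and with each E9.5 library left out, at adjusted p from 0.0644 to 0.699. The first locus shares its end with *Shmt2* and the second is a copy of *Rps15a*, and the part of shared reads in either difference was not tested. Groups of 2 libraries are too small for a test of single outlying samples.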

How the results depend on the processing

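The number of genes called higher (18) was 53 with median-ratio scaling, 29 with quantile normalization, 30 with a pseudocount of 0.1, 4 without a filter on low values and 37 with the filter on the E9.5 mean. The number called lower (1) was 2 with either scaling and with a pseudocount of 5, and 4 with the filter on the E9.5 mean. All 18 remained called under both scalings, the smaller pseudocount, the E9.5 filter, the exclusion of loci under 300 bp and the fit without a variance trend. With a pseudocount of 5, 14 genes were called higher, all among the 18 (*Adamtsl2*, *Ier3*, *Trim47* and the miRNA host *Mir22hg* lost the call), tested against 0 *Adamtsl2* lost it, and with a mean of at least 5 FPKM 8 of the 18 remained, the other 10 lying below that mean. With the GC trend removed 13 of them remained, since the 3 miRNA hosts had no GC value and *Adamtsl2* and *Smim24* missed the threshold. limma on the E9.5 libraries alone called 0 genes higher and 0 lower, while 877 and 858 had an unadjusted p below 0.05 with 1.5-fold. No single replicate could be spared. Leaving each out in turn gave 0 to 4 genes called higher and 0 to 6 called lower (0 and 1 without WT replicate 1, 4 and 6 without WT replicate 2, 1 and 0 without cKO replicate 1, 3 and 1 without cKO replicate 2), and 327 to 500 higher and 227 to 948 lower at an unadjusted p, a group left with 1 library being assumed to vary like the others. The changes of the 18 genes were at least 0.60 in every alternative that gave a value, which were 15 to 17 of the 17 for each gene. At an unadjusted p, 342 genes were higher with a pseudocount of 5, and 542 lower with a mean of at least 5 FPKM. The share of higher genes among those at an unadjusted p was 44.1%, 33.7% without the median gene subtracted, 53.0% under median-ratio scaling and 53.1% under quantile normalization. Stage differences numbered 2, with 4 under median-ratio scaling, tested against 0 and with the filter on the E9.5 mean, 0 under quantile normalization, a pseudocount of 0.1, no filter on low values or no variance trend, and 1 with the GC trend removed, a pseudocount of 5 or the replicate block (1 to 2 with a library left out). With the replicate block limma called 0 genes, and 666 higher and 783 lower passed an unadjusted p with 1.5-fold, and the numbers do not pair the samples. *Dgcr8* stayed negative and uncalled, between -1.08 and -0.34. Medians near 0 changed sign in some settings, in the V-ATPase, fatty acid, cholesterol, tRNA synthetase, antioxidant, interferon and miRNA target lists. The cause of these shifts was not tested.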
